A study of Mus musculus with 4 samples.

Results

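Chaperones are the proteins that help other proteins fold, and 42 of their genes and close regulators were followed here in Ba/F3 cells. The members were taken by symbol and fall into 4 classes: 20 genes of the endoplasmic reticulum (ER), 11 of the cytosolic heat-shock system, 7 of the cytosolic chaperonin and 4 of the mitochondrion. A probe set counted when its annotation gave exactly 1 symbol, and a gene's probe sets were averaged. By this rule 40 of the 42 members were measured among 19935 genes. Hsp90ab1, a cytosolic HSP90, and Hsf1, the master transcription factor of the heat-shock response, had no such probe set.

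Ba/F3 cells are murine pro-B cells that die without interleukin-3 (IL-3). BCR-ABL is the fusion kinase of chronic myeloid leukaemia, and it can replace that growth factor. The 4 Affymetrix Gene 1.0 ST arrays comprised 1 of parental cells grown with IL-3, 2 (A and B) of cells carrying doxycycline-inducible BCR-ABL grown with doxycycline at 500 ng/ml and no IL-3, and 1 of such cells grown with the same doxycycline and with IL-3. All cells were in logarithmic growth, and the labels give no doxycycline for the parental cells. Whether the inducible line is 1 clone, and whether A and B are separate cultures, is not stated in the labels. The p-values therefore measure only the spread between A and B, which may be technical. The stated aim was to look for transcripts under the control of the kinase and of IL-3 that bear on resistance to imatinib, an inhibitor of BCR-ABL.

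The authors deposited each gene's difference to the parental array, so the parental value of each gene is 0. The values were taken as log2. The labels state no base, and every fold given here rests on this reading. A level per cell, and the order of levels between genes, was not analysed. Fewer cells of a kind and less RNA per cell cannot be told apart in such bulk RNA. Over all genes the median was 0.0044 on A, -0.08 on B and 0.0085 on the IL-3 array, and B stood above A for 33.8% of genes. Precision is limited by there being only 4 arrays. Of the 8 B-lineage markers 7 were measured and 0 passed limma's test in either direction (2 at an unadjusted p under 0.05), with differences of the mean of A and B from the parental array between -0.41 and 0.17. Because only differences were deposited, these markers do not show whether the lineage's genes were expressed. Plasma cells are rich in ER chaperones, and 0 of their 5 measured markers passed (0 at an unadjusted p under 0.05), with values between -0.23 and 0.09. Of these markers Sdc1, Prdm1, Irf4 and Jchain were measured by dim probe sets only, meaning a stored log2 signal under 8 on at least 1 array. For such genes a small difference does not show that the transcript was unaltered. Of 6 mast cell markers Cpa3 (3.04) and Hdc (0.74) were called higher and Cma1 (-0.90, by a dim probe set) lower. Of 3 measured erythroid markers Klf1 (-0.92) and Epor (-0.70) were called lower. The part of these marker changes in the chaperone results was not tested.

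The ER folds secreted and membrane proteins with the HSP70 chaperone BiP (Hspa5), the HSP90 chaperone GRP94 (Hsp90b1), disulfide isomerases, and lectin chaperones that hold glycoproteins. When unfolded proteins accumulate there, the sensors IRE1 (Ern1), ATF6 and PERK start the unfolded protein response, in which IRE1 splices the mRNA of Xbp1. ATF6 and spliced XBP1 act on promoters through the ER stress response element (ERSE). In the cytosol the heat-shock factor HSF1 drives HSP70, HSP90 and their co-chaperones through heat-shock elements (HSE), the chaperonin TRiC folds actin, tubulin and other proteins, and HSP60 with HSP10 does the corresponding work in mitochondria.

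In BCR-ABL cells without IL-3, chaperone transcripts had a median above the parental array in each of the 4 classes, highest in the mitochondrion and the ER. By limma, at an adjusted p under 0.05 over all genes, 18 of 40 members rose and 0 fell, against 5.19% of all genes called higher and 2.87% called lower. In simulated data of this design, limma made more false calls than the threshold of 0.05 stands for, so the adjusted p-values here are likely to be too small. At an unadjusted p under 0.05 there were 23 members and 3312 genes, and each of those 23 members was higher. Both A and B lay above the parental array for 35 of 40 members, against 27.9% of all genes. The median difference of the members was 0.44, and that of all genes -0.04. By class, 11 of 20 ER genes rose (median 0.56), as did 2 of 9 cytosolic heat-shock genes (0.32), 2 of 7 chaperonin genes (0.39) and 3 of 4 mitochondrial genes (0.71). Both arrays lay at least 1.5-fold above the parental array for 11 members, of which 9 were ER genes and 2 mitochondrial, and at least 1.5-fold below it for 0. Of all genes 3.18% lay that far above on both arrays, and 1.73% that far below. All genes hold a larger share of ones marked dim than the members do. Of the 40 members 38 had no probe set marked dim, while 12979 of the 19935 genes remained without the marked probe sets. The mark can miss dim probe sets. No share was counted over those 12979 genes alone. The part of signal level in this and the later comparisons with all genes was therefore not tested. With each array centred on its own median, 10 of the 18 calls remained, and the share of all genes then called was not counted. The effects of the kinase, of doxycycline, of the derived line and of IL-3 withdrawal cannot be told apart in this comparison.

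**Figure D1:**
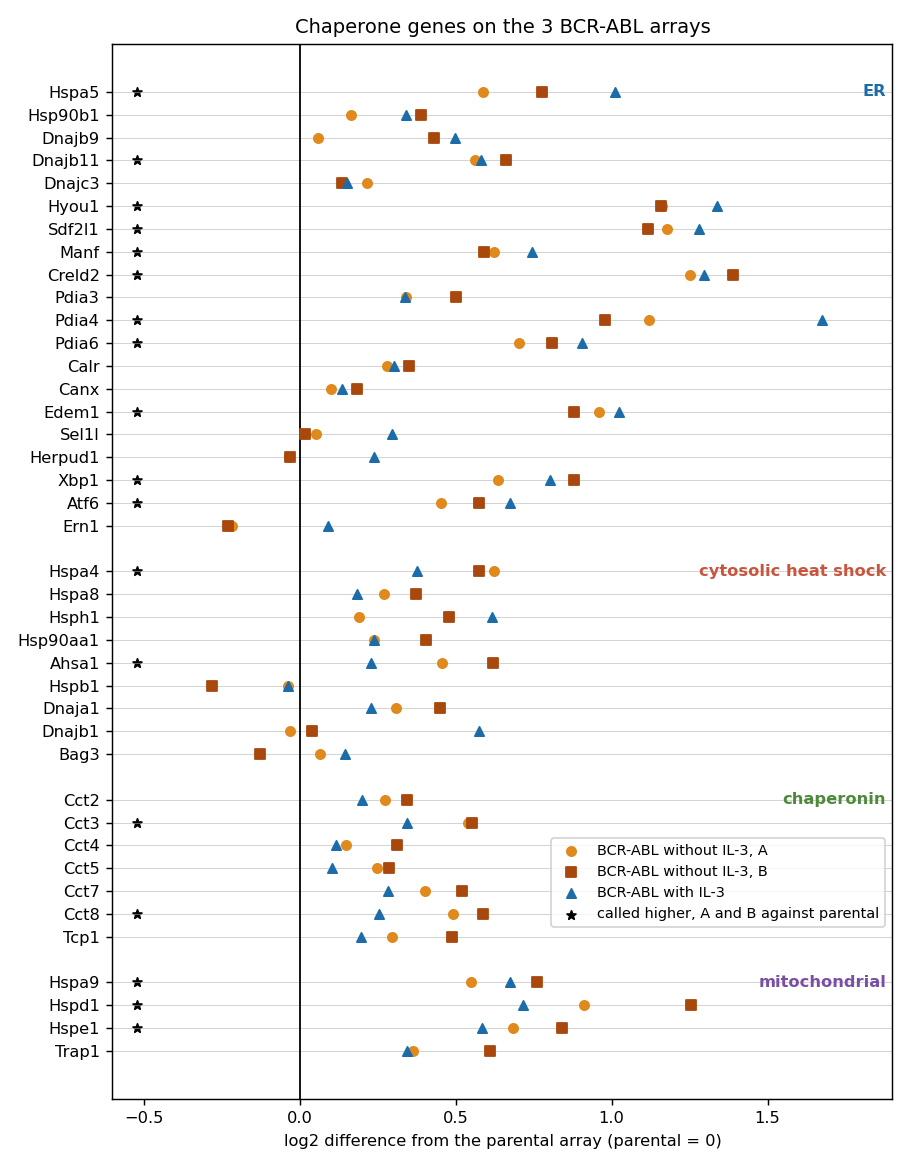
Log2 difference of each measured member from the parental array (vertical line at 0) on BCR-ABL arrays A and B without IL-3 and on the array with IL-3, by class, with a star for the 18 members called higher by limma for A and B against parental. Creld2, Hyou1, Sdf2l1 and Pdia4 stood farthest from the parental array among the ER genes, and the 7 chaperonin genes lay closer to it.

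Among ER chaperones and their cofactors 6 of 9 rose. Creld2, an ER protein induced by ER stress, had the largest mean difference of A and B from the parental array among all members, with 1.25 on A, 1.39 on B and 1.30 on the IL-3 array. It was 2.50-fold higher without IL-3 than in parental cells (log2 1.32, SE 0.16, limma adjusted p = 1.95e-05). All 3 BCR-ABL arrays were high, and they differed among themselves by far less than from the parental array. Hyou1, a large HSP70 relative that acts as nucleotide exchange factor for BiP, stood at 1.16 on A, 1.16 on B and 1.34 with IL-3. Its fold without IL-3 was 2.23 (limma adjusted p = 6.79e-05). Sdf2l1, which binds the BiP co-chaperone ERdj3, stood at 1.18, 1.12 and 1.28 on A, B and the IL-3 array (2.22-fold, limma adjusted p = 7.91e-05). These genes form a group at more than a doubling on every BCR-ABL array.

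Hspa5 itself, the central ER chaperone, rose less than Creld2, Hyou1 and Sdf2l1, with 0.59 on A, 0.78 on B and 1.01 with IL-3 (1.60-fold without IL-3, limma adjusted p = 0.00958). The IL-3 array was the highest of the 3 and lay 2.01-fold above the parental array. Manf, a secreted ER protein, stood at 0.62, 0.59 and 0.75 (limma adjusted p = 0.017). Dnajb11, which encodes ERdj3, stood at 0.56 on A, 0.66 on B and 0.58 with IL-3 (limma adjusted p = 0.017). The remaining genes of this role did not pass. Hsp90b1 was at 0.16 on A, 0.39 on B and 0.34 with IL-3. Dnajc3, which encodes the co-chaperone p58IPK, was at 0.21, 0.14 and 0.15. Dnajb9, which encodes ERdj4, differed most between the replicate arrays, with 0.06 on A and 0.43 on B, and 0.50 with IL-3.

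Of the disulfide isomerases and lectin chaperones, the isomerases Pdia4 and Pdia6 rose. Pdia6 stood at 0.70 on A, 0.81 on B and 0.91 with IL-3 (1.69-fold without IL-3, limma adjusted p = 0.00373). Pdia4 averaged 1.12 on A and 0.98 on B (2.07-fold, limma adjusted p = 2.28e-04). Its 2 probe sets were both above the parental array there, with a gap between them of 0.21 on A and 0.20 on B. On the IL-3 array the gap was 0.82, as described with the second comparison. The lectin-associated isomerase Pdia3 was at 0.34, 0.50 and 0.34 on A, B and the IL-3 array, and did not pass. The lectin chaperone Calr was at 0.28, 0.35 and 0.30. Its membrane-bound relative Canx was at 0.10, 0.18 and 0.13. These 3 genes were above the parental array on all BCR-ABL arrays and did not pass. Their SE, from 0.15 for Calr to 0.16 for Pdia3, rested mainly on the spread between A and B over all genes, less on their own.

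ER-associated degradation and the sensors went apart. Edem1, a lectin that hands misfolded glycoproteins to degradation, stood at 0.96 on A, 0.88 on B and 1.03 with IL-3 (1.89-fold without IL-3, limma adjusted p = 7.26e-04). Sel1l, the adaptor of the ubiquitin ligase HRD1, was at 0.05, 0.02 and 0.30. Herpud1, another component of that complex, was at -0.04, -0.03 and 0.24. For both, A and B sat at the parental level and the IL-3 array above it. Xbp1 stood at 0.64 on A, 0.88 on B and 0.80 with IL-3 (1.69-fold without IL-3, limma adjusted p = 0.00511). Atf6 was at 0.45, 0.58 and 0.68, and its limma adjusted p of 0.0484 lay close to the threshold. Ern1, whose product splices the Xbp1 mRNA, was at -0.22 on A, -0.23 on B and 0.09 with IL-3 and did not pass. The probe sets measure total Xbp1 transcript, and its splicing was not analysed here. With each array centred on its median, Hspa5, Dnajb11, Xbp1 and Atf6 lost their calls, with limma adjusted p-values of 0.0572, 0.0545, 0.0552 and 0.0937. Their differences were then 0.72, 0.65, 0.79 and 0.55, no smaller than before, and the prior fell from 16.38 to 5.016 degrees of freedom. Creld2, Hyou1, Sdf2l1, Manf, Pdia4, Pdia6 and Edem1 kept their calls.

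Elements of the unfolded protein response were searched in RefSeq promoter windows (GRCm38.p6), which run from 250 bases before to 50 after an annotated start. A window was held for 33 of the 42 members, among them 17 of 20 ER genes. ERSE was searched as CCAAT, then 9 bases of any kind, then CCACG, on both strands. It was found in 7 of 17 ER windows (41.2%) and in 0.119% of all 32851 windows. It was found in 0 of 11 cytosolic heat-shock, 0 of 8 chaperonin and 0 of 4 mitochondrial windows. The ER list holds genes of the unfolded protein response, and ERSE is an element of that response. Its share in ER windows is therefore no independent result about the list. The shorter element ERSE-II, searched as ATTGG, 1 base of any kind, then CCACG, on both strands, was found in 2 ER windows (11.8%) and in 0.0365% of all windows. The core of the element UPRE, searched as TGACGTGG on both strands, was found in 0 windows of members and in 0.676% of all windows. The ERSE letters CCAAT and CCACG taken alone were common, in 37.4% and 32.8% of all windows and in 88.2% of ER windows each. ERSE, ERSE-II and the UPRE core overlap in that all hold CCACG on one strand, and ATTGG is CCAAT read on the other. A match describes these letters and is not a binding site, and a window without one only lacks these letters.

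The matches are given because ERSE and ERSE-II each occur in windows of genes that rose and of genes that did not. They are written 5′ to 3′ along the motif, with the searched letters in capitals and the free spacer in lower case.
Hspa5: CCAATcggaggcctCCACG
Creld2: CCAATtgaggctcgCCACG
Pdia6: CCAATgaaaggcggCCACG
Hsp90b1, first match: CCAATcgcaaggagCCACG
Hsp90b1, second match: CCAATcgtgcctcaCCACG
Calr: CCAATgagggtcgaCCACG
Dnajc3: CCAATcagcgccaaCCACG
Canx: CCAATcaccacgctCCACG
Dnajb11, ERSE-II: ATTGGcCCACG
Herpud1, ERSE-II: ATTGGgCCACG

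Of the 7 genes with an ERSE match, Hspa5, Creld2 and Pdia6 rose, and Hsp90b1, with a pair of matches, Calr, Dnajc3 and Canx did not pass. Their differences ranged from 0.14 to 1.32, with a median of 0.32. Dnajb11 and Herpud1 both carry ERSE-II, and the first was at 0.61 and the second at -0.03. The 8 ER genes whose windows held neither element had a median of 0.59, and 4 of them rose, namely Sdf2l1, Pdia4, Edem1 and Xbp1. Among the 17 ER genes with a window, exact matches therefore did not separate those that rose from those that did not. The other 3, Hyou1, Manf and Atf6, all rose and had no window to search.

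The windows of the central chaperone and of the member with the largest difference are shown whole, with the ERSE match in capitals. That of Hspa5 lies at chr2:34771840-34772139 on the plus strand and that of Creld2 at chr15:88819396-88819695 on the plus strand. In Hspa5 the match starts at position -65 from the annotated start and reads on the gene's strand, and in Creld2 it starts at -126 and reads on the opposite strand.
Hspa5: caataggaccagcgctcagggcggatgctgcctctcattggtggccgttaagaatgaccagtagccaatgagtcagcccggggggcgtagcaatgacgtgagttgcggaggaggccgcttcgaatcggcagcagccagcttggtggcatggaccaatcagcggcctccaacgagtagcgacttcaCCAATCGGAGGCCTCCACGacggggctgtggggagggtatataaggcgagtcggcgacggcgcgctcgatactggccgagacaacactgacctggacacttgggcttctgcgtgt
Creld2: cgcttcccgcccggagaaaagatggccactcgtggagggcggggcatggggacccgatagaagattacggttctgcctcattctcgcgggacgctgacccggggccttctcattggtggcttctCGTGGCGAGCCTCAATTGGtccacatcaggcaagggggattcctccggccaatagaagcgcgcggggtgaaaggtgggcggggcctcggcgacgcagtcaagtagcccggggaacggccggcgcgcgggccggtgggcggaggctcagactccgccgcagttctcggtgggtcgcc

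**Figure D2:**
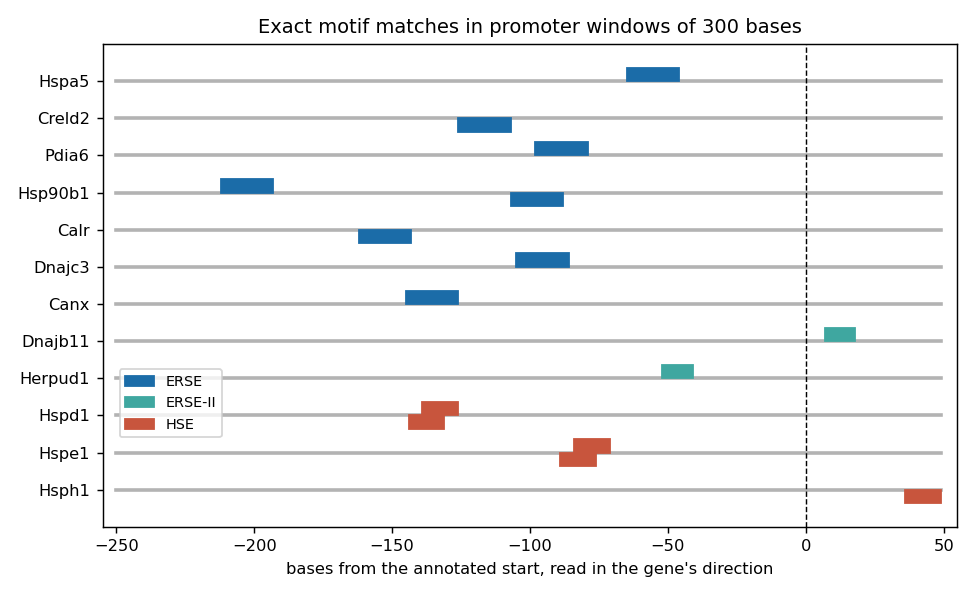
Positions of exact ERSE, ERSE-II and HSE matches in the promoter windows of members that hold one, in bases from the annotated start (dashed line), with matches on the gene's strand above each grey line and those on the opposite strand below it. Where a gene has several windows, one that holds a match is drawn. The ERSE matches lie upstream of the start in all 7 genes, and the ERSE-II match of Dnajb11 lies just after it.

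Mitochondrial chaperones had the highest class median without IL-3 against parental, over 4 genes. Over genes with 1 probe set only, the mitochondrial median was 0.57 and the ER median 0.56. Hspd1, the HSP60 chaperonin of the matrix, stood at 0.91 on A, 1.25 on B and 0.72 with IL-3 (2.12-fold without IL-3, limma adjusted p = 3.57e-04). Its partner Hspe1, which encodes the HSP10 lid of that chaperonin, stood at 0.68, 0.84 and 0.59 (1.70-fold, limma adjusted p = 0.00388). Both genes showed the order B, A, IL-3 array from high to low, well above the parental array in every case. Hspa9, the matrix HSP70 mortalin, was at 0.55, 0.76 and 0.68 (limma adjusted p = 0.0134), and this call was lost with each array centred on its median (limma adjusted p = 0.0726). Trap1, the mitochondrial HSP90, was at 0.36 on A, 0.61 on B and 0.34 with IL-3, and did not pass (limma adjusted p = 0.078).

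Hspd1 and Hspe1 lie head to head, and their windows overlap on chromosome 1. An HSE was searched on both strands as GAA, TTC and GAA in this order, with 2 bases of any kind between neighbours. It was found in both genes, as a pair of overlapping matches on opposite strands. Among the other members with a window only Hsph1 held it. A window was held for 7 of the 11 cytosolic heat-shock members. Hspa8, Hsp90aa1, Hsp90ab1 and Hsf1 had none and were not searched. Of all windows 0.603% hold the element. The window of Hspe1, at chr1:55087898-55088197 on the plus strand, is shown because it holds the element that both genes share, with the paired matches in capitals.
Hspe1: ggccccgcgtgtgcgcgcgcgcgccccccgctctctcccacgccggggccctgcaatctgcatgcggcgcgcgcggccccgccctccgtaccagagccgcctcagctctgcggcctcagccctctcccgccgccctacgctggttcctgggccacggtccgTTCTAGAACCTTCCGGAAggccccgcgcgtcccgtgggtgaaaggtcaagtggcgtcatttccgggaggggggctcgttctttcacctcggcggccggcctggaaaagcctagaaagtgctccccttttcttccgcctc

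Of the cytosolic heat-shock genes, Hspa4 and Ahsa1 rose. Hspa4, an HSP110-family exchange factor, stood at 0.62 on A, 0.58 on B and 0.38 with IL-3 (1.52-fold without IL-3, limma adjusted p = 0.0187). Ahsa1, the activator of the HSP90 ATPase, stood at 0.46, 0.62 and 0.23 (limma adjusted p = 0.04), and lost the call with each array centred on its median (limma adjusted p = 0.0977). For both, the IL-3 array was the lowest of the 3. The constitutive HSP70 Hspa8 was at 0.27, 0.37 and 0.18. The cytosolic HSP90 gene Hsp90aa1 was at 0.24, 0.41 and 0.24, and the J-protein Dnaja1 at 0.31, 0.45 and 0.23. These 3 genes lay above the parental array on every BCR-ABL array and did not pass. Probe sets of such genes can also bind processed copies elsewhere in the genome, which was not tested.

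The other 4 genes of the class varied more in position. Dnajb1, the J-protein HSP40 and a standard HSF1 target, was at -0.03 on A, 0.04 on B and 0.57 with IL-3. Hsph1, which encodes HSP105, was at 0.19, 0.48 and 0.62. Bag3, an HSP70 co-chaperone, was at 0.07, -0.13 and 0.15. The small heat-shock protein gene Hspb1 was at -0.04, -0.28 and -0.04. None of these 4 passed, and Hspb1 and Bag3 were measured by dim probe sets only, meaning a stored log2 signal under 8 on at least 1 array. For Dnajb1 and Bag3, A and B lay on either side of the parental array.

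The chaperonin TRiC is a double ring of 8 kinds of subunit, of which 7 belong to the list. All 7 were above the parental array on A, B and the IL-3 array, within a narrow range of 0.23 to 0.55 for the mean of A and B. Cct3 stood at 0.54 on A, 0.55 on B and 0.34 with IL-3 (1.46-fold without IL-3, limma adjusted p = 0.0328). Cct8 stood at 0.49, 0.59 and 0.25 (1.45-fold, limma adjusted p = 0.0363). Both lost their calls with each array centred on its median, with limma adjusted p-values of 0.0572 and 0.076. Cct7 was at 0.40, 0.52 and 0.28, and Tcp1 at 0.30, 0.49 and 0.20. Neither passed, and in both the order of the arrays was that of Cct8, with B highest and the IL-3 array lowest. Cct2 was at 0.27, 0.34 and 0.20, and Cct5 at 0.25, 0.28 and 0.11. The smallest difference was that of Cct4, at 0.15 on A, 0.31 on B and 0.12 with IL-3. The remaining subunit, Cct6a, is no member and was picked with its values in view. It showed the same order, with 0.52, 0.65 and 0.35 (limma adjusted p = 0.0232, and 0.0705 with each array centred).

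**Figure D3:**
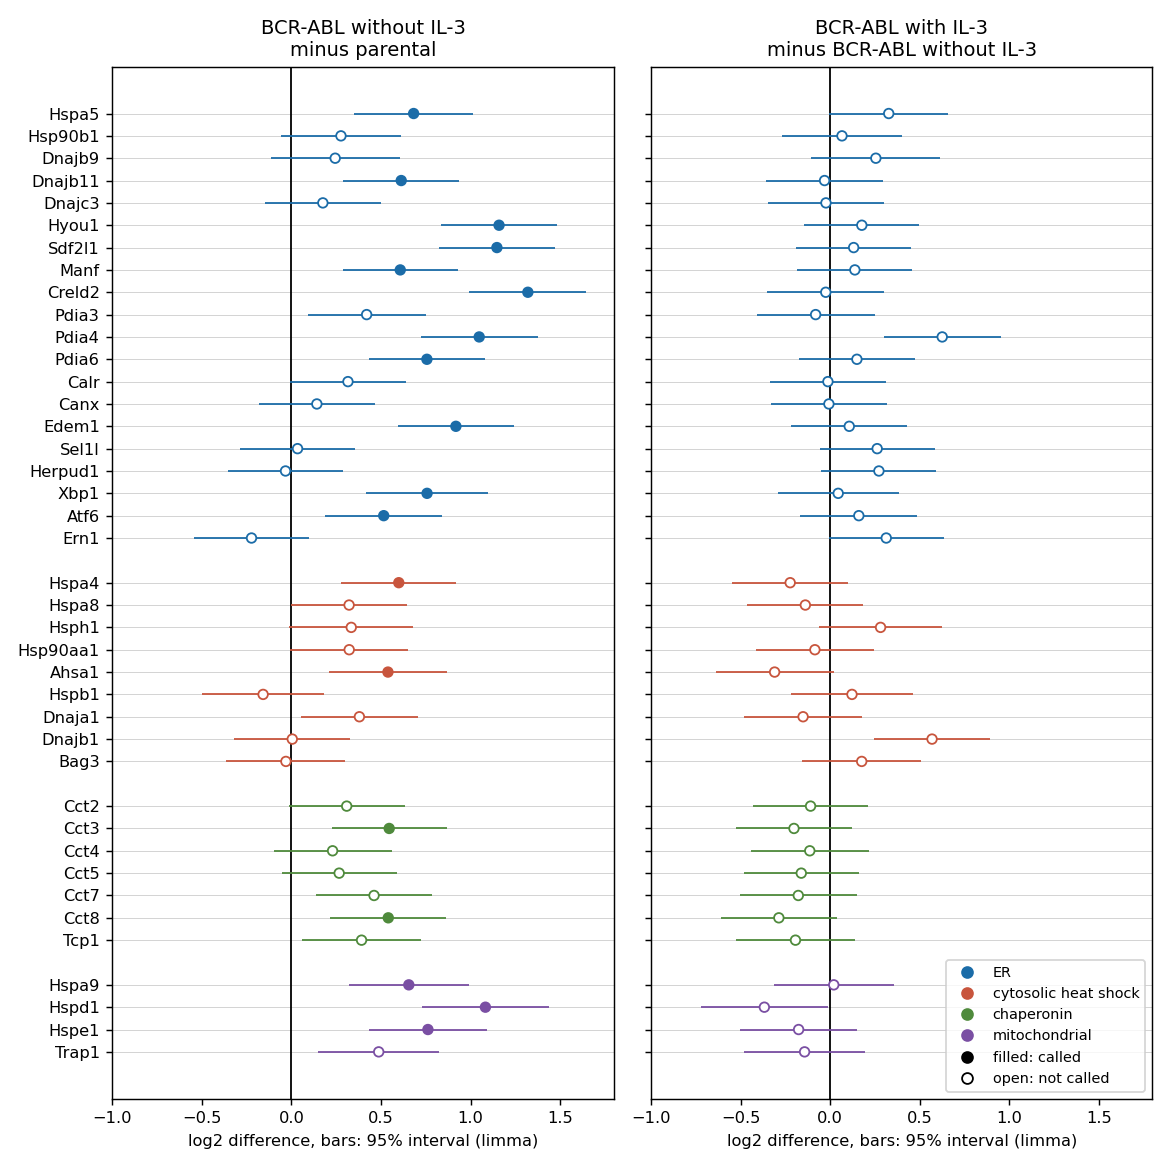
Log2 difference of each measured member in BCR-ABL cells without IL-3 against parental cells (left) and in BCR-ABL cells with IL-3 against those without (right), with bars for the 95% interval from limma and filled points for members called at an adjusted p under 0.05. Filled points number 18 on the left and 0 on the right, and the 7 chaperonin genes lie right of 0 on the left panel and left of it on the right panel.

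The array of BCR-ABL cells with IL-3 was set against the parental array, both grown with the growth factor. With 1 array on each side no test was made of it, and the values stand by themselves. Of the 40 members 14 were at least 1.5-fold higher and 0 at least 1.5-fold lower, against 3.3% and 2.53% of all genes. They comprised 10 ER genes, 3 mitochondrial genes and Hsph1. The ER median was 0.63 and the mitochondrial median 0.63, while the cytosolic heat-shock and chaperonin medians were 0.23 and 0.20, and that of all genes was 0.0085. The comparison shares the parental array with the one above, so the values are side by side and not independent of each other.

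The second test set the IL-3 array against A and B, and so compares BCR-ABL cells with and without IL-3. Only 1 array had both BCR-ABL and IL-3, so an effect of IL-3 cannot be told apart from a deviation of that array or its culture. By limma 0 of 40 members passed, where 1 of 19935 genes was called (0.00502%). At an unadjusted p under 0.05 there were 3 members, Pdia4, Dnajb1 and Hspd1, and 901 genes. At least 1.5-fold from both A and B were 0 members in either direction, against 0.0752% of all genes higher and 0.0401% lower. The ER median was 0.13, the cytosolic heat-shock median -0.09, the chaperonin median -0.18 and the mitochondrial median -0.16, beside 0.03 for all genes. These medians depended on the array left out: without A and without B in turn the ER median was 0.10 and 0.17, the cytosolic one -0.17 and -0.0012, the chaperonin one -0.21 and -0.12, and the mitochondrial one -0.26 and -0.06. The cytosolic heat-shock median turned to 0.18 over genes with 1 probe set only. That no member passed does not show that IL-3 left them unaltered: for Hspa5 the 95% interval of the difference ran from -0.0045 to 0.66, and for Cct8 from -0.61 to 0.04.

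The order of the arrays differed between classes. The IL-3 array lay above both A and B for 12 of 20 ER genes and 4 of 9 cytosolic heat-shock genes, against 39.9% of all genes. It lay below both for 7 of 7 chaperonin genes, 3 of 4 mitochondrial genes, 5 of 9 cytosolic heat-shock genes and 1 of 20 ER genes, against 25.5% of all genes. The arrays' order after centring each on its median was counted after seeing the data. The IL-3 array was then above both for 11 ER genes, against 30.6% of all genes. It was below both for 2 ER genes and for 7 chaperonin genes, against 36.3% of all genes. The chaperonin differences from the mean of A and B ran from -0.29 for Cct8 to -0.11 for Cct2. These subunits work as 1 complex and are not independent of each other. A and B enter both tested comparisons with opposite sign, so the values of the one are not independent of those of the other.

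**Figure D4:**
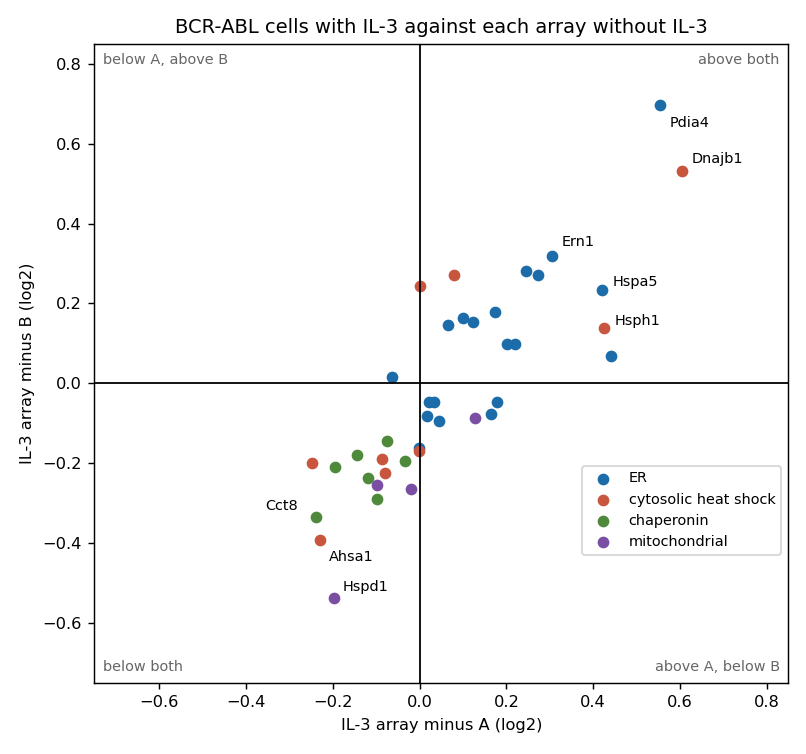
Log2 difference of the IL-3 array from array A (horizontal) and from array B (vertical) for the 40 measured members, coloured by class. The 7 chaperonin genes all fall in the lower left corner, where the IL-3 array is below both, and 12 ER genes fall in the upper right, where it is above both.

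Among single genes the widest positive differences with IL-3 were those of Pdia4 and Dnajb1. Dnajb1 was higher with IL-3 by 0.61 than A and by 0.53 than B (mean difference 0.57, SE 0.15, limma adjusted p = 0.46). Hspa5 was higher by 0.42 than A and 0.23 than B, and Ern1 by 0.31 and 0.32. Both lay above A and B on the IL-3 array, and neither passed. On the negative side Hspd1 was lower by 0.37 than the mean of A and B (log2 -0.37, 95% interval -0.72 to -0.01), with -0.20 from A and -0.54 from B. Ahsa1 was at -0.23 from A and -0.39 from B.

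The difference of Pdia4 rested on 1 of its 2 probe sets. Averaged, Pdia4 was at 1.12 on A, 0.98 on B and 1.67 with IL-3 (mean difference 0.63, SE 0.16, limma adjusted p = 0.448). The first probe set read 1.22 on A, 1.08 on B and 1.26 with IL-3. The second read 1.01 on A, 0.88 on B and 2.09 with IL-3. The excess of the IL-3 array over the mean of A and B was thus 0.11 by one and 1.14 by the other. Both probe sets agreed that Pdia4 was higher than in parental cells. Across the 8 members with several probe sets, the gap between a gene's highest and lowest probe set on the IL-3 array was 0.82 for Pdia4, 0.30 for Dnaja1 and at most 0.07 for the other 6.

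**Figure D5:**
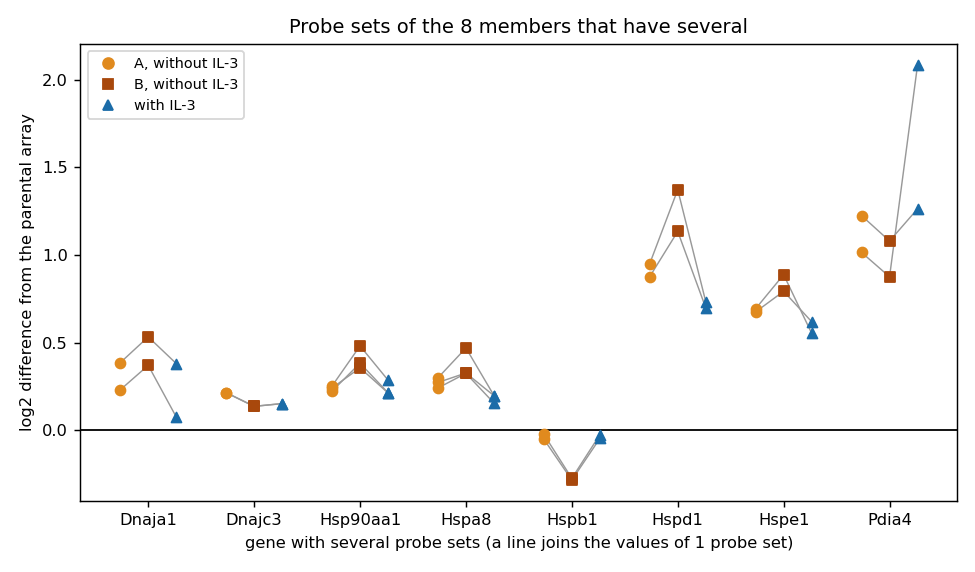
Log2 difference from the parental array on A, B and the IL-3 array for each probe set of the 8 members that have several, with a line joining the values of 1 probe set. The probe sets of Pdia4 part on the IL-3 array, at 1.26 and 2.09, and those of the other 7 genes differ by at most 0.30 on any of the 3 arrays, the widest gap being that of Dnaja1.

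Arrays A and B were replicates by label, and the members were mostly higher on B. This held for 29 of 40 members, against 33.8% of all genes, and for 7 of 7 chaperonin and 4 of 4 mitochondrial genes. Genes marked dim are more common among all genes than among the members, and their part in this contrast was not tested. The median difference of B from A was 0.10 over members and -0.07 over all genes. The widest gaps were 0.37 for Dnajb9, 0.34 for Hspd1 and 0.29 for Hsph1, where B was higher, and -0.24 for Hspb1, where B was lower. The member median against the parental array was 0.35 by A and 0.51 by B, so it lay above the parental level on each. Both medians rest on the same single parental array, so they are not independent of each other. With each array centred on its median, which raises B against A for every gene, B was above A for 37 of 40 members and for 19 of 20 ER genes in place of 12, against 54.2% of all genes.

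Other folding genes, from a list of 108 further chaperones, translocation, degradation and prefoldin genes, showed a smaller shift. Of 99 measured, 12 rose and 3 fell without IL-3, beside 5.19% and 2.87% of all genes, with a median of 0.21. With IL-3 against without, 0 passed by limma. The mitochondrial protease Htra2 was at 0.67 on A, 0.78 on B and 0.59 with IL-3 (limma adjusted p = 0.00519). Ostc, a subunit of oligosaccharyltransferase, was at 0.63, 0.75 and 0.61, and the prefoldin subunit Pfdn4 at 0.47, 0.85 and 0.53. The ER thioredoxin Txndc11 was at 0.68, 0.60 and 0.41, the HSP90 cyclophilin Ppid at 0.47, 0.80 and 0.36, and the mitochondrial protease subunit Clpp at 0.56, 0.68 and 0.52. These 6 had the largest differences among the genes that rose. With each array centred, Htra2, Txndc11 and Ostc kept their calls (limma adjusted p = 0.0386, 0.0356 and 0.0442), and Pfdn4, Ppid and Clpp lost theirs. The 3 that fell were the J-protein Dnajb4 (-0.65), the ER lectin Erlec1 (-0.62) and the mitochondrial iron-sulphur co-chaperone Hscb (-0.61), and all 3 lost their calls on centring (limma adjusted p from 0.0992 to 0.143). By class, 4 of 27 ER folding and translocation genes rose and 0 fell (median 0.29). Of 14 mitochondrial folding and protease genes 3 rose and 1 fell (median 0.24). Of 8 sensors and regulators of the unfolded protein response 0 passed, the PERK gene Eif2ak3 among them at 0.16.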

How the data were processed

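RNA of 4 Ba/F3 samples was hybridised to Gene 1.0 ST arrays, per the labels' protocols. The deposited log2 values are differences from the parental array: that column is 0 in all 28815 probe sets. Background correction, normalization and summarisation by the authors are not given in the sources used here. Every difference is a whole number of steps of 2 to the power minus 21, up to rounding of the last printed digit and of single precision. Single-precision numbers from 4 to 8 have that step. The step comes from how numbers are stored and does not show the log base, so base 2 was assumed. An odd multiple marked 11012 probe sets as dim (a stored number under 8). Even multiples do not show that the stored numbers were 8 or more, so some dim probe sets can go unmarked. The platform annotation gave 1 symbol to 21780 probe sets, several to 1605 and none to 5430. limma (version 3.58.1, under R 4.3.3) was run once on all 19935 genes, with a mean for each of the 3 groups, two-sided, with Benjamini-Hochberg adjustment over all genes. The 1 residual degree of freedom is A against B, whose spread is taken to hold for the single arrays too. The prior had 16.38 degrees of freedom and an SD of 0.128. The fit was tested on simulated data, in which 200 of 19935 genes were changed by 2-fold. It recovered 99.5% of them in the first comparison and 99.0% in the second. Of its calls 16.0% and 19.8% were false, more than the threshold of 0.05 states. Changes smaller than 2-fold were not simulated, and most members called here lay under 2-fold. Alternatives were centring each array, other thresholds, leaving out dim probe sets or genes with several, a robust prior, and leaving out A or B. The members and lists were chosen with earlier results of these data known. All members could be named, and of the other folding genes up to 6 called ones per direction with the largest difference.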

Additional observations from a re-analysis of the deposited data

How the results depend on the processing

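The counts of members called and of members past 1.5-fold, the class medians and the single members kept their direction, apart from the cases that follow, and the number of members called higher ran from 15 to 20 under the alternatives other than centring. With each array centred on its median, 10 members were called higher in place of 18, and the prior fell from 16.38 to 5.016 degrees of freedom. The same centring turned the sign of Herpud1 (to 0.0031) and Bag3 (to 0.0053) without IL-3 against parental, and of Hspa9 (to -0.0247) with IL-3 against without. Leaving out dim probe sets ended the call of Atf6. At 2-fold in place of 1.5-fold, 3 members were higher on both A and B and 6 on the IL-3 array than on the parental array. For none of the alternatives was the share of all genes called, or past a fold, counted. The member counts under them therefore stand by themselves. Over genes with 1 probe set only, the cytosolic heat-shock median was 0.18 for IL-3 against without and 0.38 for the IL-3 array against parental, and the mitochondrial median was 0.57 without IL-3 against parental. With IL-3 against without, the sign of Hsp90b1, Dnajb11, Dnajc3, Creld2, Calr, Canx, Xbp1 and Hspa9 depended on whether A or B was left out, since the IL-3 array lay between them, as did that of Dnajb1 and Bag3 against parental, and the class medians moved by over 1.5 times in the cytosolic, chaperonin and mitochondrial classes. Without A or without B no residual degree of freedom is left, so calls were not made. Members at least 1.5-fold above the parental array then numbered 12 to 16, and 1 member, Pdia4 without A and Dnajb1 without B, lay 1.5-fold higher with IL-3. Signal over background was not analysed here.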
